A study of Mus musculus with 9 samples.

Results

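RNA-seq was used to follow 10 genes of the transforming growth factor β (TGF-β) pathway, namely the ligands Tgfb1, Tgfb2 and Tgfb3, the receptors Tgfbr1, Tgfbr2 and Tgfbr3, and the latent binders Ltbp1, Ltbp2, Ltbp3 and Ltbp4. They were chosen by symbol from the 40548 genes in the expression tables, and each symbol matched 1 gene. The cells were primary osteoblastic cells from the calvaria, the bone of the skull vault, of mice whose sample records give the strain as C57BL/6 and the age as postnatal day 2 to 3. The methods of the study name the substrain C57BL/6J and a wider span of newborn ages. Libraries of 3 biological replicates per stage were made from total RNA depleted of ribosomal RNA, with 3 from cells that had not been differentiated (day 0), 3 after 4 days (day 4) and 3 after 7 days (day 7) in mineralization medium with β-glycerol phosphate and ascorbic acid. All 9 libraries came from cells without any transgene or deletion named in the sample records, and the mice were of both sexes according to the methods of the study. Day 0 cells were harvested with trypsin alone and mineralized cultures with collagenase I followed by trypsin, so the harvest and the stage cannot be told apart. In bulk samples such as these, fewer cells of a type and less RNA per cell cannot be told apart either.

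TGF-β ligands are secreted in a latent form, in which the mature ligand stays wrapped in its own propeptide and is usually bound by a latent TGF-β binding protein that anchors it in the extracellular matrix. After release, for example by integrins or proteases, the ligand brings together the type II receptor Tgfbr2 and the type I receptor Tgfbr1, a pair of kinases that phosphorylate Smad2 and Smad3, while the co-receptor Tgfbr3, also called betaglycan, presents ligand to them. Bone matrix is a large store of latent TGF-β, and the pathway is known to favour the early osteoblast lineage and to restrain the last steps of osteoblast maturation.

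All 10 genes were on autosomes, and some lay near each other. On chromosome 7, Tgfb1 and Ltbp4 were 1.60 megabases apart, and on chromosome 12, Ltbp2 and Tgfb3 were 1.18 megabases apart. The ligands Tgfb1 and Tgfb2 both had their highest mean level at day 4. Only for Tgfb2 was every day 4 library above the other stages. Of the receptors, Tgfbr2 fell from day 0 to day 7 and Tgfbr1 did not pass the test. For these ligands and receptors, the 250 bases before the transcription start are shown. They are RefSeq sequences of GRCm38.p6, written 5′ to 3′ on the strand of the gene, at chr7:25686752-25687001 on the plus strand for Tgfb1, chr1:186705990-186706239 on the minus strand for Tgfb2, chr4:47352972-47353221 on the plus strand for Tgfbr1 and chr9:116175364-116175613 on the minus strand for Tgfbr2. Capitals mark matches on either strand to the GC box (GGGCGG), the TATA box (TATAAA), the CCAAT box (CCAAT), a Smad element (CAGACA) or an AP-1 site (TGANTCA).
Tgfb1: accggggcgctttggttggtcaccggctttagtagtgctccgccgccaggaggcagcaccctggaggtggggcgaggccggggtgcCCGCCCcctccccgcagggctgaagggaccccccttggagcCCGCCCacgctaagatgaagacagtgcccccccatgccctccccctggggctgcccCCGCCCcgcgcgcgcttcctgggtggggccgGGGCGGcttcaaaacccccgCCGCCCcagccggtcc
Tgfb2: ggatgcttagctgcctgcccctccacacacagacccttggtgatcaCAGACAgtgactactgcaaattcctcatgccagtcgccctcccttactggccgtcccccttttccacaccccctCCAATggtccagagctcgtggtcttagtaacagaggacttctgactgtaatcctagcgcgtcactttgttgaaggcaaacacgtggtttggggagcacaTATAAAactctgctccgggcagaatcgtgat
Tgfbr1: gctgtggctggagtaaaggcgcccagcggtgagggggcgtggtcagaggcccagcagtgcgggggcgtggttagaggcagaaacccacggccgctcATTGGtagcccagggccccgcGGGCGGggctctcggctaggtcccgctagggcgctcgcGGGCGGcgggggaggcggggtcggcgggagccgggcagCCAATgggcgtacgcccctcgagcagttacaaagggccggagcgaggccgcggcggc
Tgfbr2: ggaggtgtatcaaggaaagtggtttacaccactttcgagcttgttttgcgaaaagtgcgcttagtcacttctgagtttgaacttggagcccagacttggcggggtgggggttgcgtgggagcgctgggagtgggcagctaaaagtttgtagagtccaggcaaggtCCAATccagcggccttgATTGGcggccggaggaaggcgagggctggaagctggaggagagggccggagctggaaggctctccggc
The Tgfb1 window held 5 GC boxes and no TATA box, whereas the Tgfb2 window held a TATA box, a CCAAT box and a Smad element and no GC box. In the Tgfbr1 window, the one of 2 annotated starts that begins at the gene's 5′ end, there were 2 GC boxes and 2 CCAAT boxes, and in the Tgfbr2 window 2 CCAAT boxes and none of the other motifs. Among 32817 such windows of mouse genes, 32.7% held a GC box, 12.4% the TATA box, 33.8% a CCAAT box, 17.1% the Smad element and 6.75% the AP-1 site. These matches are descriptions of the sequence, not evidence that a factor binds there.

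Levels are given as RPKM, the reads on a gene scaled to its length and to the depth of the library. Differences between day 7 and day 0 are given as log2 fold changes of CPM, the reads scaled to depth alone, after adding 0.5. They were tested with limma on the 12712 genes whose CPM averaged 1 or more, with Benjamini-Hochberg adjustment over all of them and a threshold of 0.05. All 10 genes passed that filter. Day 4 lies in tables of its own and was not tested, so it is described by whether its 3 values overlap those of another stage. Libraries held 7741204 to 14013219 reads on genes at day 0, 32820610 to 37306090 at day 4 and 10675858 to 15622755 at day 7. Differences of day 4 from the other stages therefore cannot be told apart from its separate tables and greater depth. The fewest reads on any of the 10 genes were 152, for Tgfb2 in a day 0 library, so each was measured in all 9 libraries. Of the osteoblast markers, 9 of 10 rose from day 0 to day 7, beside 12.6% of all genes tested. The markers that rose included Alpl (alkaline phosphatase), Bglap (osteocalcin) and Ibsp (bone sialoprotein), while Runx2 did not pass the test. Every day 7 library of Runx2 was still above every day 0 library, and it passed in 9 of the 22 other settings described below.

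From day 0 to day 7, 5 of the 10 genes fell, namely Tgfb3, Tgfbr2, Tgfbr3, Ltbp3 and Ltbp4, and none of the 10 rose. Among all genes tested, 18.6% fell and 12.6% rose, 31.2% in all, which were 2369 and 1602 genes, while edgeR with TMM scaling on the reads recovered from CPM called 2650 lower and 2818 higher. The median log2 fold change of the 10 genes was -0.43, beside -0.11 over all genes tested. By unadjusted p under 0.05 the count was also 5 lower and 0 higher. In these 5 genes every day 7 library was below every day 0 library, as in 25.1% of the 12782 genes whose CPM averaged 1 or more over all 9 libraries. The same 5 genes were past the threshold in all 22 other settings of the scaling, filter, test and libraries, whereas edgeR and DESeq2 each called 1 of the 10 higher, which was Ltbp2. Scaling by the median of ratios moved the median of all genes by 0.10 on the log2 scale, which is smaller than each of the 5 falls.

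**Figure D1:**
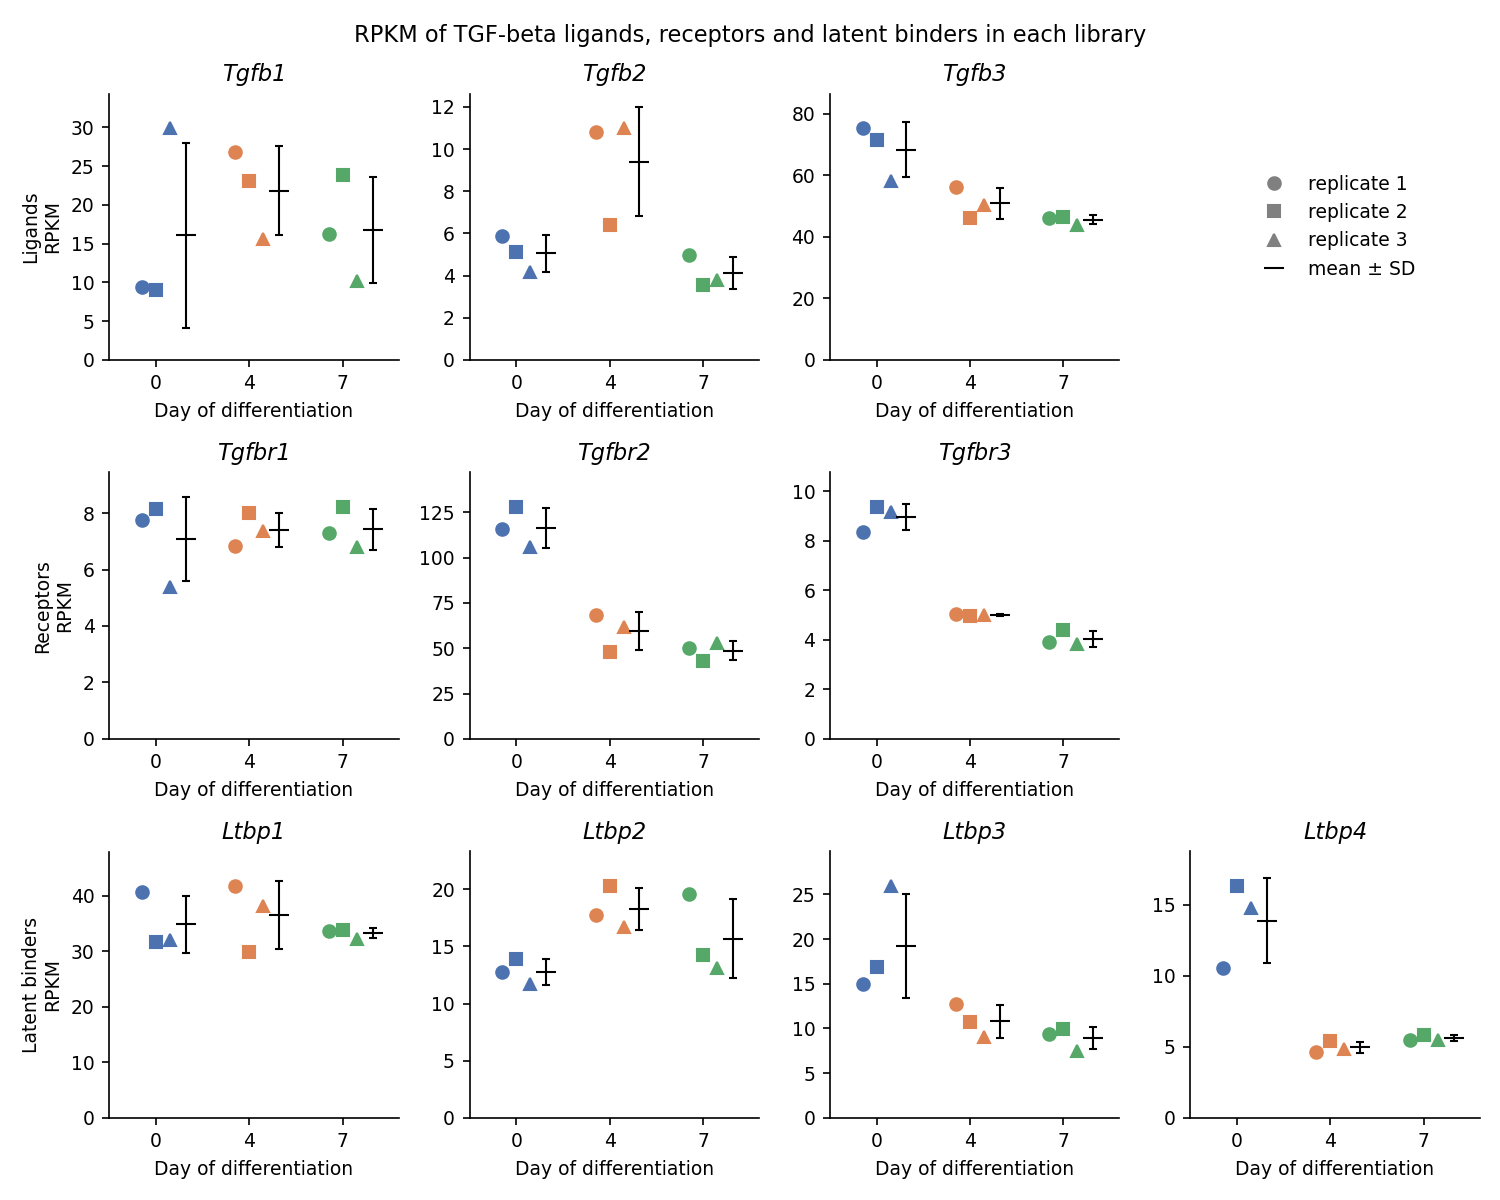
RPKM of each gene in each library by day of differentiation, with replicates as separate symbols and the mean ± SD of each stage (n = 3) to the right. Tgfbr2, Tgfbr3, Ltbp3, Ltbp4 and Tgfb3 are higher in every day 0 library than in any later library, Tgfb2 peaks at day 4, and 1 day 0 library of Tgfb1 stands far above the others.

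Tgfb3 was the ligand with the highest RPKM at every stage, and it fell, while Tgfb1 and Tgfb2 did not pass the test. This gene (ENSMUSG00000021253) lies at chr12:86056745-86079041 on the minus strand of GRCm38. Its RPKM was 75.3, 71.4 and 58.3 in the day 0 libraries, 56.1, 46.3 and 50.3 at day 4, and 46.3, 46.4 and 43.9 at day 7. All day 0 libraries were above all later ones, and day 4 overlapped day 7. The mean was 68.4 ± 8.91 (SD, n = 3) at day 0 and 45.5 ± 1.43 (SD, n = 3) at day 7, a log2 fold change of -0.58 ± 0.15 (SE) with a 95% interval from -0.89 to -0.27 and an adjusted p of 0.00272 in limma. The uncharacterized genes Gm37804 and Gm48008 overlap it on the opposite strand and share 8.79% of its 50-base stretches, so its level is uncertain to that extent. Smaller overlaps touch Tgfb2 (2.14% of its exon bases, by Gm29491) on the opposite strand and Tgfbr3 (4.54%, by Gm43422) on the same strand.

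Tgfb1, the ligand that is most abundant in bone matrix, did not pass the test, and its libraries disagreed. It (ENSMUSG00000002603) lies at chr7:25687002-25705077 on the plus strand. At day 0 its RPKM was 9.45 and 8.95 in replicates 1 and 2 but 29.9 in replicate 3. The day 4 libraries were at 26.8, 23.1 and 15.6, and the day 7 libraries at 16.3, 23.9 and 10.1. Day 0 therefore spanned the whole range of the later stages. The log2 fold change from day 0 to day 7 was 0.21 ± 0.25 (SE), with a 95% interval from -0.30 to 0.71 and an adjusted p of 0.572 in limma. Without day 0 replicate 3 it was 0.77 with an adjusted p of 0.0239, and without replicate 1 or 2 of day 0 it was -0.053 or -0.091.

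The libraries with the highest Tgfb1 at day 0 and day 7 were also those with the most reads on loci that take up ribosomal RNA, a set of loci named after its values were seen. Gm42418, a locus that overlaps a ribosomal RNA repeat, held 119626 CPM in day 0 replicate 3, beside 29371 and 30371 in the other day 0 libraries. At day 7 it held 81172 CPM in replicate 2, beside 10249 and 1099, and at day 4 it held 28347, 23590 and 12054. Over the 6 libraries of day 0 and day 7, with the stage in the model, Tgfb1 had a slope of 0.27 on the log2 scale of Gm42418, with an adjusted p of 1.27e-07 in limma. It was the only one of the 10 genes past the threshold for that slope, as were 0.795% of all genes tested. With Gm42418 in the model, the log2 fold change of Tgfb1 from day 0 to day 7 was 0.84 with an adjusted p of 0.000176, and without both libraries it was 0.47 with an adjusted p of 0.0746. Gm42418 was picked after its values in these same libraries were seen, so the slope and its p-value are not an independent test. The part of ribosomal RNA reads in the level of Tgfb1 was not tested beyond these values.

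**Figure D2:**
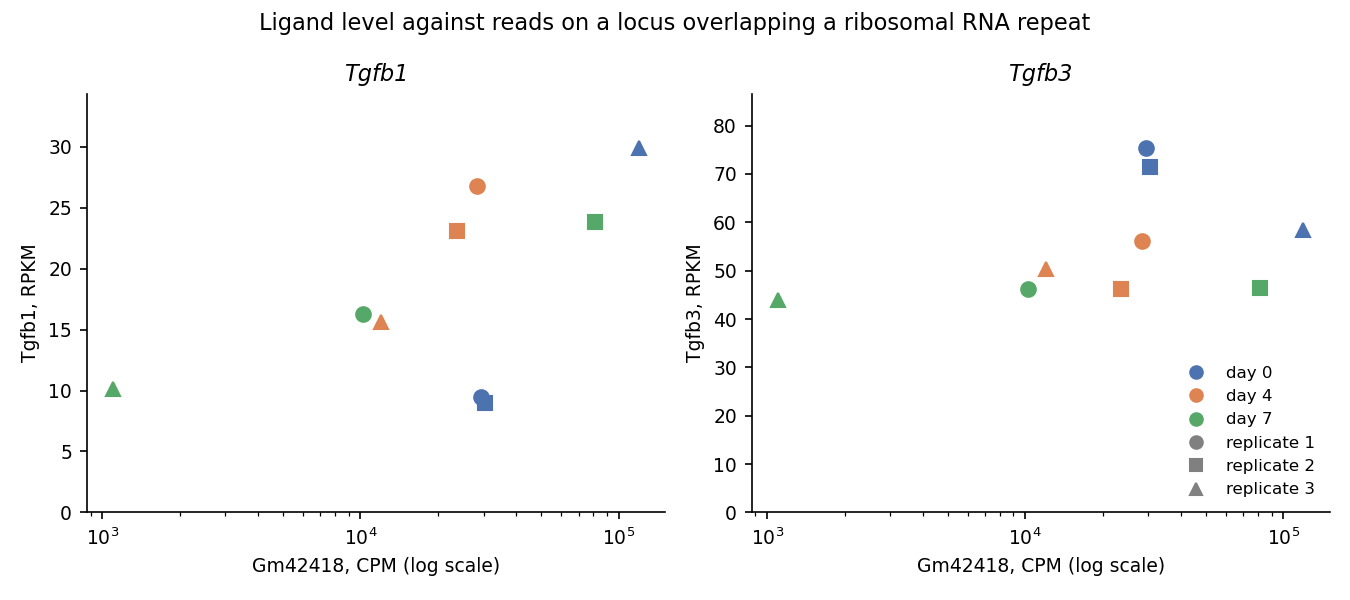
RPKM of Tgfb1 (left) and Tgfb3 (right) against CPM of Gm42418 on a log axis, with 1 point per library, colours for days and symbols for replicates. Tgfb1 is highest, at 29.9, in the library with 119626 CPM of Gm42418, while Tgfb3 in that library is the lowest of day 0, at 58.3.

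Tgfb2 had the lowest mean RPKM of the ligands at every stage and its own highest values at day 4. Located at chr1:186622792-186705989 on the minus strand, this gene (ENSMUSG00000039239) had an RPKM of 5.87, 5.11 and 4.15 at day 0. At day 4 the values were 10.8, 6.41 and 10.99, and at day 7 they were 4.97, 3.57 and 3.79. Every day 4 library was above every library of the other stages, as for 8.07% of the 12782 genes. From day 0 to day 7 the log2 fold change was -0.29 ± 0.18 (SE), with a 95% interval from -0.65 to 0.071 and an adjusted p of 0.229. Without day 0 replicate 3 the difference passed the test, at -0.42 with an adjusted p of 0.0359.

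As a share of the summed RPKM of the 3 ligands, Tgfb3 made up 83.1%, 83.5% and 63.2% in the day 0 libraries, 59.9%, 61.1% and 65.4% at day 4, and 68.5%, 62.9% and 75.9% at day 7. Its shares at day 0 and day 7 overlapped, and in day 0 replicate 3, where its share was lowest, Tgfb1 held 32.3%. The difference of the mean shares was -7.50 percentage points, with p = 0.3 in a two-sided exact permutation test. It ranged from -14.2 without day 0 replicate 3 to -4.02 without day 0 replicate 2, with -4.25 without day 0 replicate 1 and -4.38 without day 7 replicate 2. Per length of all annotated exons, in place of the authors' gene lengths, it was -4.99 percentage points. For Tgfb2 the share was 6.48%, 5.98% and 4.50% at day 0 and 11.5%, 8.45% and 14.3% at day 4, and at day 7 it was 7.36%, 4.83% and 6.56%. The sum of the ligands ranged from 85.5 to 92.4 RPKM at day 0, from 75.8 to 93.7 at day 4 and from 57.8 to 73.8 at day 7, so that day 7 was below day 0 in every library (exact permutation p = 0.1, the smallest that 3 libraries against 3 allow).

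Tgfbr2, the type II receptor that binds the ligand directly, fell from day 0 to day 7. The gene (ENSMUSG00000032440) is at chr9:116084293-116175360 on the minus strand. Its RPKM was 116, 128 and 106 at day 0, 68.5, 48.0 and 62.0 at day 4, and 50.3, 43.0 and 52.8 at day 7. Day 4 and day 7 overlapped, and every value of either was below every day 0 value. The mean went from 116 ± 11.03 (SD, n = 3) at day 0 to 48.7 ± 5.12 (SD, n = 3) at day 7, and the log2 fold change was -1.26 ± 0.16 (SE), with a 95% interval from -1.57 to -0.94 and an adjusted p of 5.48e-09. Across the other settings the log2 fold change lay between -1.38 and -1.11, and it was below that of Tgfbr3 in 21 of the 22.

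Tgfbr3, the co-receptor betaglycan, had a far lower RPKM and fell as well. Found at chr5:107106570-107289629 on the minus strand, it (ENSMUSG00000029287) had an RPKM of 8.36, 9.36 and 9.15 at day 0. The values were 5.03, 4.95 and 5.004 at day 4 and 3.90, 4.39 and 3.82 at day 7. Each stage was below the one before it without overlap. Its log2 fold change from day 0 to day 7 was -1.14 ± 0.16 (SE), with a 95% interval from -1.46 to -0.81 and an adjusted p of 1.31e-07.

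Tgfbr1, the type I receptor and the kinase that passes the signal to Smad2 and Smad3, had the narrowest range of the receptors. This gene (ENSMUSG00000007613), at chr4:47353222-47414931 on the plus strand, had an RPKM of 7.76, 8.14 and 5.37 at day 0, 6.84, 8.01 and 7.36 at day 4, and 7.28, 8.21 and 6.79 at day 7. All stages overlapped. The log2 fold change from day 0 to day 7 was 0.085 ± 0.17 (SE), with a 95% interval from -0.25 to 0.42 and an adjusted p of 0.746.

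Ratios between the receptors were then taken within each library. The log2 ratio of Tgfbr1 to Tgfbr2 was -3.90, -3.97 and -4.30 at day 0 and -2.79, -2.39 and -2.96 at day 7, a difference of 1.35. Relative to Tgfbr3, the log2 ratio of Tgfbr1 was -0.11, -0.20 and -0.77 at day 0 and 0.90, 0.90 and 0.83 at day 7, a difference of 1.24. Between Tgfbr2 and Tgfbr3 the log2 ratio was 3.79, 3.77 and 3.53 at day 0 and 3.69, 3.29 and 3.79 at day 7, and these values overlapped. A ratio within a library does not depend on how the library was scaled. In the sum of the receptors, Tgfbr2 held 87.8%, 88.0% and 87.9% at day 0 and 81.8%, 77.3% and 83.3% at day 7, while Tgfbr1 went from 5.87%, 5.60% and 4.47% to 11.8%, 14.8% and 10.7%. Both shares were without overlap between the stages (exact permutation p = 0.1). These shares rest on the gene lengths that the authors divided by. The mean shares differed by -7.09 percentage points for Tgfbr2 and 7.13 for Tgfbr1. Per length of all annotated exons, the differences were -9.77 and 10.3.

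**Figure D3:**
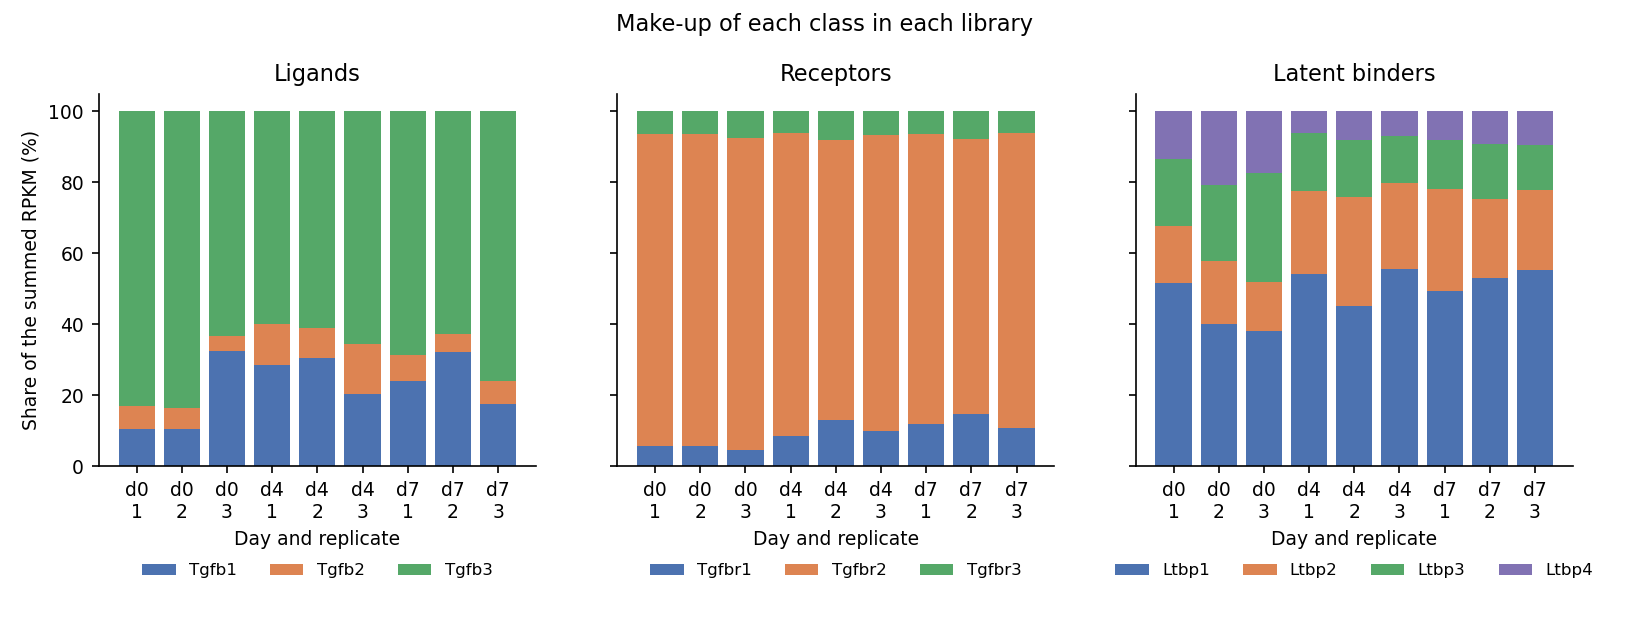
Share of each gene in the summed RPKM of its class (ligands, receptors, latent binders), as stacked bars for each library, labelled by day and replicate. Tgfb3, Tgfbr2 and Ltbp1 lead their classes in all 9 libraries, and the shares of Ltbp3 and Ltbp4 are smaller at day 4 and day 7 than at day 0.

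Among the latent binders, Ltbp3 and Ltbp4 fell while Ltbp1 and Ltbp2 did not pass the test. Ltbp4, which is known for its part in elastic fibre assembly, had the lowest log2 fold change of the 10 genes, close to that of Tgfbr2, which was lower in 8 of the 22 other settings. It (ENSMUSG00000040488) is at chr7:27305136-27337692 on the minus strand, and none of its 50-base stretches occurs in another gene. The RPKM was 10.6, 16.3 and 14.8 at day 0, 4.65, 5.38 and 4.84 at day 4, and 5.50, 5.84 and 5.48 at day 7. Every day 4 library was thus below every library of the other stages, as for 3.76% of all genes. From 13.9 ± 2.98 (SD, n = 3) at day 0 it went to 5.61 ± 0.199 (SD, n = 3) at day 7, with a log2 fold change of -1.27 ± 0.16 (SE), a 95% interval from -1.60 to -0.94 and an adjusted p of 1.47e-08.

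Ltbp3, a binder known to be required for normal bone turnover and tooth enamel, also fell. The gene (ENSMUSG00000024940), at chr19:5740904-5758532 on the plus strand, had an RPKM of 14.99, 16.9 and 25.9 at day 0. At day 4 it was at 12.7, 10.7 and 8.998, and at day 7 at 9.41, 9.90 and 7.48. All day 0 libraries were above all later ones, and day 4 overlapped day 7. The log2 fold change was -1.07 ± 0.17 (SE), with a 95% interval from -1.42 to -0.72 and an adjusted p of 1.93e-06, and without day 0 replicate 3, which was the highest library, it was -0.84 with an adjusted p of 0.000229.

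Ltbp1, the first known member of the family, which binds latent ligand covalently, did not pass the test. At chr17:75005568-75392512 on the plus strand, it (ENSMUSG00000001870) had an RPKM of 40.8, 31.7 and 32.1 at day 0, 41.7, 29.9 and 38.1 at day 4, and 33.7, 33.9 and 32.2 at day 7. All stages overlapped. The log2 fold change was -0.056 ± 0.16 (SE), with a 95% interval from -0.37 to 0.26 and an adjusted p of 0.823, and its sign depended on the scaling, being 0.052 with median-of-ratios scaling.

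Ltbp2, which unlike the other binders is not known to carry latent ligand, had a higher level at day 4 than at day 0 in every library. This gene (ENSMUSG00000002020) is at chr12:84783212-84876532 on the minus strand, and 9.34% of its exon bases are overlapped by the antisense gene D030025P21Rik. Its RPKM was 12.7, 13.9 and 11.7 at day 0, 17.8, 20.3 and 16.7 at day 4, and 19.6, 14.3 and 13.1 at day 7. From day 0 to day 7 the log2 fold change was 0.27 ± 0.16 (SE), with a 95% interval from -0.049 to 0.60 and an adjusted p of 0.200. The difference passed the threshold in 8 of the 22 other settings, all of them upward, among them edgeR at 0.40 with an adjusted p of 0.0284 and DESeq2 at 0.40 with an adjusted p of 0.00587.

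Within each library, Ltbp1 and Ltbp2 were higher relative to Ltbp3 and Ltbp4 at day 7 than at day 0. The log2 ratio of Ltbp2 to Ltbp4 was 0.27, -0.23 and -0.34 at day 0 and 1.83, 1.29 and 1.26 at day 7, a difference of 1.56 and the largest of the 12 pairs compared within the 3 classes. For Ltbp1 to Ltbp4 the difference was 1.23, and for Ltbp2 to Ltbp3 it was 1.35. In 6 of the 12 pairs the day 0 and day 7 ratios did not overlap, each with an exact permutation p of 0.1 and an adjusted p of 0.2 over the 12 pairs, values that cannot reach the threshold with 3 libraries against 3. Ltbp3 and Ltbp4 did not separate from each other, with a difference of 0.21 and an exact permutation p of 0.7. In the sum of the binders, Ltbp1 held 51.6%, 40.2% and 38.0% at day 0 and 49.4%, 53.0% and 55.3% at day 7, which overlapped.

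**Figure D4:**
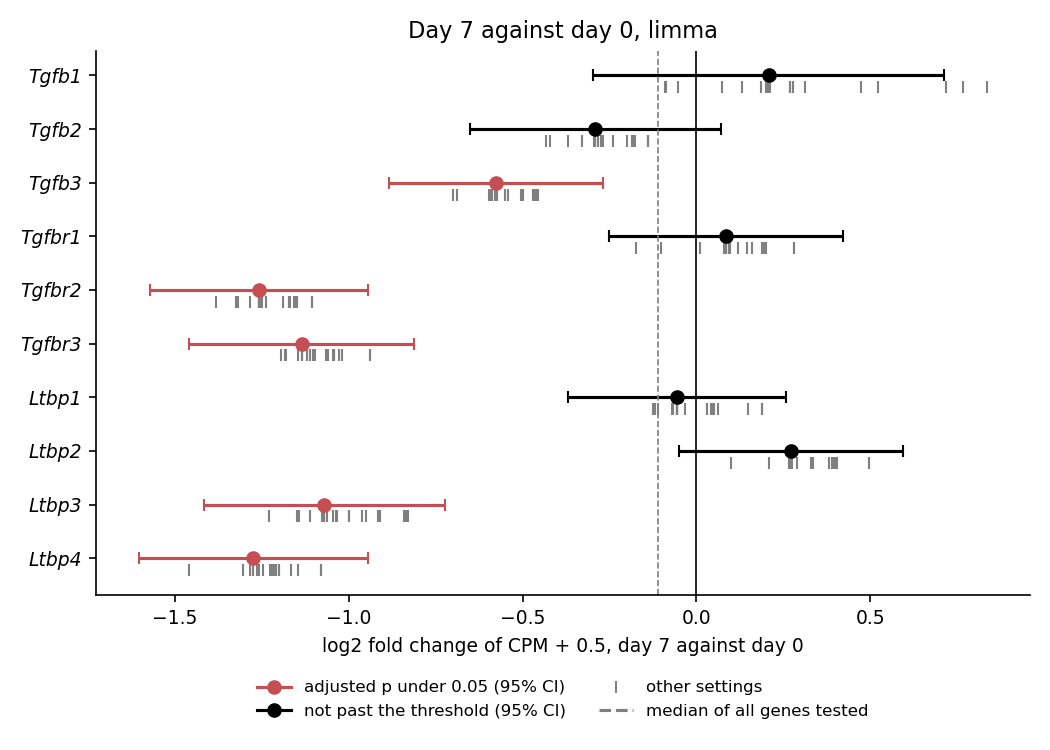
log2 fold change of CPM + 0.5 from day 0 to day 7 for each gene, with the 95% interval from limma, red where the adjusted p was under 0.05, grey ticks for the 22 other settings and a dashed line for the median of all genes tested. The 5 genes in red lie between -0.58 and -1.27, and no tick of theirs reaches 0.

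By day 4, 5 of the 10 genes were below day 0 in every library, namely Tgfb3, Tgfbr2, Tgfbr3, Ltbp3 and Ltbp4, beside 21.9% of all genes, and 2, Tgfb2 and Ltbp2, were above it, beside 21.6%. The mean RPKM of Tgfbr2 at day 4 was 51.0% of that at day 0, that of Tgfbr3 55.7%, that of Ltbp3 56.0%, that of Ltbp4 35.7% and that of Tgfb3 74.5%. This comparison and that of day 7 with day 0 share the day 0 libraries. From day 4 to day 7, 2 genes were lower in every library, Tgfb2 and Tgfbr3, beside 25.0% of all genes, and 1 was higher, Ltbp4, beside 13.6%. That difference of Ltbp4, from 4.96 ± 0.378 to 5.61 ± 0.199 (SD, n = 3 each), did not stay without overlap once the 9 libraries were scaled by the median of ratios. Leaving out day 4 replicate 2, which was the lowest day 4 library for Tgfb3, Tgfbr2 and Ltbp1, brought the count of genes lower at day 7 than at day 4 from 2 to 5. The share of all genes in that setting is not given here, and with fewer libraries any gene separates more easily.

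Ordered by mean RPKM, Tgfbr2 came first at every stage, followed by Tgfb3 and then by Ltbp1. At day 0 these neighbours did not overlap, but at day 4 and day 7 the values of Tgfbr2 overlapped those of Tgfb3. Tgfb1 and Ltbp2 followed at day 4 and day 7 and overlapped each other, and at day 0 Ltbp3, Tgfb1, Ltbp4 and Ltbp2 each overlapped the next. Tgfb2 was last at day 0, Ltbp4 at day 4 and Tgfbr3 at day 7. This order rests on the gene lengths that the authors divided by, which for Tgfbr2 (4785 bases), Tgfb1 (2558) and Ltbp3 (5190) were far below the bases of all their annotated exons (8187, 5042 and 9069). Per length of all annotated exons, Tgfb3 came first at every stage, with 68.4 ± 8.91 CPM per kilobase at day 0 beside 68.1 ± 6.45 for Tgfbr2, and the mean of Ltbp1 was above that of Tgfbr2 at day 4 and day 7. On that scale the day 0 values of Tgfb2, 3.39 to 4.79, overlapped those of Tgfb1, 4.54 to 15.2. The length does not enter the comparison of a gene with itself between stages.

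The 3 genes with profiles most like that of Ltbp4, which had the lowest log2 fold change as reported but not in 8 of the 22 other settings, were Cldn1, Sh3bp5 and En1. Their root mean square differences from it, in log2(CPM + 0.5) centred on each gene's mean over the 9 libraries, were 0.144, 0.209 and 0.218. Cldn1 is a tight junction protein and En1 a homeobox factor, with mean RPKM of 0.682, 0.139 and 0.235 for Cldn1 and 14.5, 5.99 and 5.93 for En1 at day 0, day 4 and day 7.

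Around the 10 genes, 4 lists of pathway genes were examined. Of 17 tested genes that free or process the latent ligand, 6 fell and 3 rose, with a median log2 fold change of -0.22, beside 18.6% and 12.6% of all genes. The number that rose was 5 with edgeR, beside 22.2% of all genes, and 1 without day 7 replicate 1, beside 9.07%. Thrombospondin 1 (Thbs1), which can release active ligand from its latent form, had the largest fall, from 1885, 1577 and 1633 RPKM at day 0 to 637, 371 and 492 at day 7 (log2 fold change -1.79, adjusted p = 9.45e-10), and the related Thbs2 fell by 1.08 on the log2 scale. Nrros, which tethers latent Tgfb1 on myeloid cells, had the largest rise but at a level of 0.260 to 0.508 RPKM at day 7 (0.83, adjusted p = 0.0206), and it did not pass without day 7 replicate 2 (adjusted p = 0.0546). The abundant Itgb1, an integrin chain, and the matrix proteases Mmp2 and Mmp14 did not pass the test, with log2 fold changes of -0.22, -0.21 and 0.065.

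Among the 9 matrix genes that hold or bind latent complexes, 3 fell and 2 rose, beside 18.6% and 12.6% of all genes. Fibrillin 2 (Fbn2), one of the microfibril proteins to which latent binders attach, went from 41.4, 42.8 and 39.5 RPKM at day 0 to 11.8, 5.76 and 8.20 at day 7 (log2 fold change -2.32, adjusted p = 9.89e-16). Fn1, fibronectin, fell by 0.71 on the log2 scale but did not pass in 8 of the 22 other settings. Transglutaminase 2 (Tgm2), which crosslinks latent binders into the matrix, rose by 1.33 from a low level. The small proteoglycans Bgn, Fmod and Aspn did not pass the test, at -0.41, 0.20 and 0.20.

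In the list of 22 genes that carry or curb the signal, 6 fell and 1 rose, beside 18.6% and 12.6% of all genes. With edgeR, DESeq2, median-of-ratios scaling or voomWithQualityWeights 5 rose, beside 20.3% to 24.8% of all genes. As reported, the riser was Bambi, a decoy receptor without a kinase, at 4.30, 3.93 and 2.97 RPKM at day 0, 8.82, 8.47 and 9.47 at day 4, and 19.6, 14.7 and 14.9 at day 7 (log2 fold change 2.11, adjusted p = 1.49e-14). Pmepa1, an inhibitor that traps Smads, fell by 0.82 and Ski, a Smad co-repressor, fell by 0.71 on the log2 scale. Smad4, the partner of Smad2 and Smad3, had a log2 fold change of -0.14 and did not pass, nor did Usp15, which deubiquitinates the type I receptor, at -0.31 or the Smad phosphatase Ppm1a at -0.33. Without day 0 replicate 3 the number of genes in this list that fell was 13, but 36.8% of all genes fell then, and without day 7 replicate 2 or 3 it was 3 or 2, beside 12.2% or 13.2% of all genes.

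Of 19 genes known to respond to TGF-β in many cell types, 6 rose and 2 fell from day 0 to day 7, beside 12.6% and 18.6% of all genes. The number that rose was 10 with median-of-ratios scaling, beside 22.2% of all genes, and 2 without day 7 replicate 1 and 3 without day 7 replicate 3, beside 9.07% and 10.1%. It was also 2 with Gm42418 as a covariate, beside 10.1% of all genes. The number that fell was 0 with DESeq2 or voomWithQualityWeights, beside 18.3% and 23.4%. It was 1 without day 0 replicate 1, day 7 replicate 2 or day 7 replicate 3, beside 12.8%, 12.2% and 13.2%. The largest rise was that of the transcription factor Bhlhe40 (log2 fold change 2.00, adjusted p = 9.36e-15), and Postn, which encodes periostin, rose by 0.54 but did not pass in 4 of the 22 other settings, among them without day 0 replicate 1, day 7 replicate 1 or day 7 replicate 3 (adjusted p of 0.071, 0.108 and 0.0532). Ctgf, a matricellular protein, fell by 0.69 on the log2 scale but did not pass with DESeq2 (adjusted p = 0.0854), voomWithQualityWeights (adjusted p = 0.142) or without day 0 replicate 3 and day 7 replicate 2 together, while Acta2 (smooth muscle actin), Tagln (transgelin) and Tnc (tenascin C) did not pass the test. At day 4, 12 of the 19 were above every day 0 library and 1 was below, and by day 7, 11 were below every day 4 library, beside 21.6%, 21.9% and 25.0% of all genes. Tagln, for example, was at 602, 576 and 472 RPKM at day 0, 786, 872 and 872 at day 4, and 515, 533 and 548 at day 7, so that day 4 was the highest stage, as for Tgfb2. The 1 gene below was Acta2, at 1293, 1436 and 1270 RPKM at day 0 and 1013, 1034 and 1051 at day 4. Its day 7 values were 1151, 1213 and 1099, so that day 4 was its lowest stage.

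**Figure D5:**
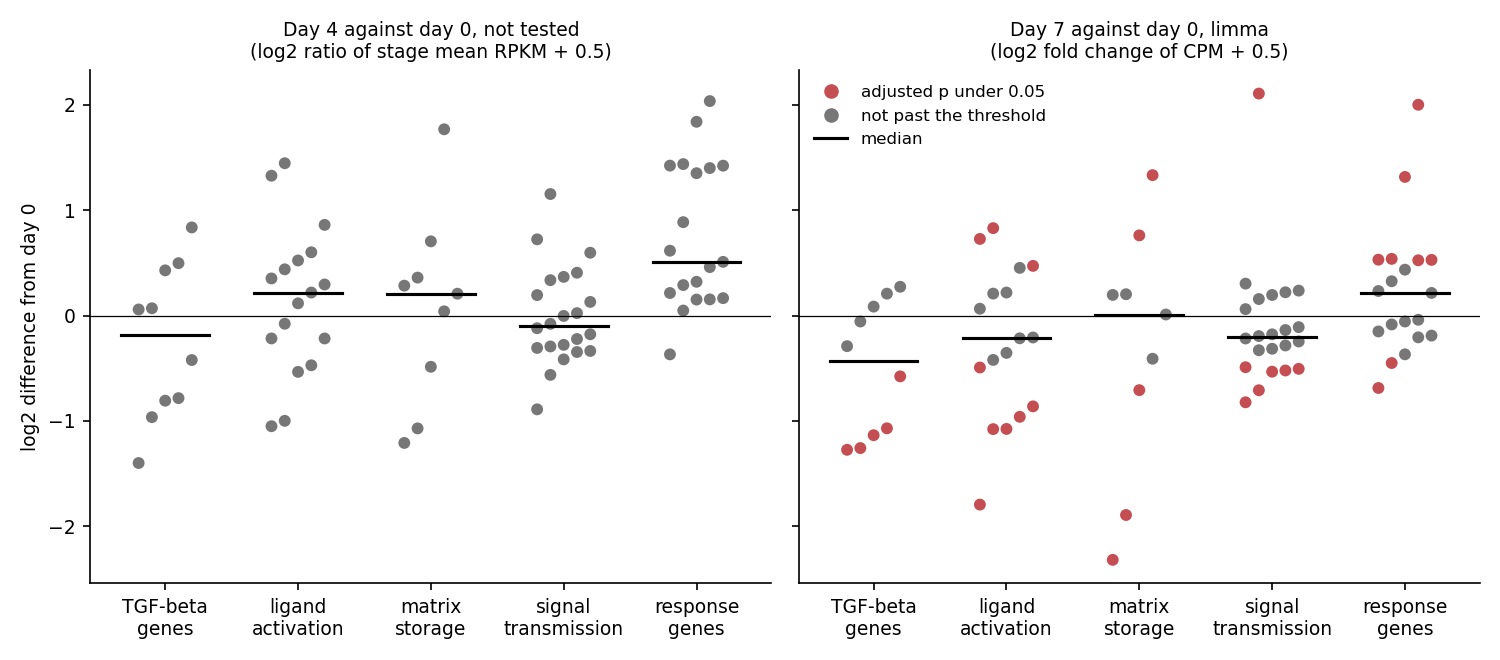
log2 difference from day 0 of each tested gene of the TGF-β genes and of the 4 pathway lists, at day 4 (left, ratio of the mean RPKM + 0.5, not tested) and at day 7 (right, limma, red where the adjusted p was under 0.05), with the median of each list as a bar. At day 7 the median is -0.43 for the TGF-β genes and 0.21 for the response genes.

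Markers of other cells moved with the stages too, and their counts stand beside 12.6% of all genes tested that rose and 18.6% that fell. All 8 macrophage markers rose from day 0 to day 7, and their summed RPKM was 45.6 to 77.3 at day 0, 89.1 to 99.4 at day 4 and 85.8 to 115 at day 7, most of it Lyz2. Of the 6 osteoclast markers, 3 were tested and all 3 rose, while Dcstamp was at 0 in all day 0 and day 4 libraries. The 5 smooth muscle markers of the list rose, with sums of 111 to 127 at day 0, 190 to 217 at day 4 and 179 to 184 at day 7. Acta2 (smooth muscle actin) and Tagln, counted above with the response genes, did not pass the test, at -0.21 and -0.040 on the log2 scale. Of 5 chondrocyte markers tested, 3 fell, among them Col2a1, and 2 rose, with sums of 163 to 468, 54.0 to 170 and 64.3 to 162. Endothelial markers were near 0, with Emcn at 0 in all 9 libraries and sums of at most 0.459 RPKM, and of the 4 adipocyte markers 1 was tested and did not pass. The part of such cells in the levels of the 10 TGF-β genes was not tested.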

How the data were processed

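Bulk RNA-seq of 9 libraries was used. By the sample records and the study's methods, the authors aligned reads with STAR 2.0.4b to the Ensembl release 76 assembly (GRCm38) and counted uniquely aligned reads per gene with Subread featureCounts, whose setting for strand is not given in the sources used here. The authors deposited CPM, which scale the reads to the depth on genes, and RPKM, which also divide by a gene length, in 1 pair of tables for day 0 and day 7 and 1 for day 4. Divided by the value of 1 read, 100% of the CPM in all 9 libraries were whole within 0.01, and the reads were recovered in this way. All 18 columns of values were mapped to samples.

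For day 7 against day 0, limma 3.58.1 (R 4.3.3) was fitted with a trend of the variance to log2(CPM + 0.5) of the genes whose CPM averaged 1 or more. The prior held 42.9 degrees of freedom against 4 residual, so p-values rest mostly on the spread of genes of like level. Shares, ratios and sums were compared with two-sided exact permutation tests, whose smallest p is 0.1. Alternatives were pseudocounts of 0.1 and 1, all genes with reads, RPKM, median-of-ratios scaling, edgeR 4.0.16, DESeq2 1.42.0 and voomWithQualityWeights on recovered reads, a replicate block, removal of trends on length or GC content, robust variances, Gm42418 as a covariate, and leaving out libraries. Robust variances, the GC trend, the covariate, leaving out 2 libraries together and the annotated exon length were added after seeing the data. The fit was also run on simulated counts with known changes and the same spread setting for every gene. That setting does not cover libraries rich in ribosomal RNA reads, so the run does not bear on them.

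The 10 genes, the lists of pathway and marker genes, and the tests were chosen with earlier results of these data known. The text names all 10, the largest called rise and fall and up to 4 further genes with the highest RPKM in each pathway list, and the 3 genes most like the member with the largest fall. Positions and exons are from GENCODE M21 (GRCm38). Promoters are from RefSeq, and those of Tgfb3 and Tgfbr3 were not used here. No 2 replicates of a stage agreed within counting noise (chi-square over degrees of freedom of 11.7 to 203). Counts of reads cover counting error only.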

Additional observations from a re-analysis of the deposited data

How the results depend on the processing

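The falls of Tgfb3, Tgfbr2, Tgfbr3, Ltbp3 and Ltbp4 kept their direction and passed the threshold in all 22 other settings. The number of TGF-β genes called lower was 5 in 21 of them. It was 6 without day 0 replicate 3, where Tgfb2 was added and 36.8% of all genes were called lower. The number called higher, 0 as reported, was 1 with DESeq2, edgeR, median-of-ratios scaling, voomWithQualityWeights, the GC trend removed or the length trend removed, each time Ltbp2, and 1 with Gm42418 as a covariate, which was Tgfb1. Leaving out 1 library, it ranged from 0 to 1. The log2 fold change of Ltbp1, which passed in none of them, was 0.046 with DESeq2, 0.043 with edgeR, 0.052 with median-of-ratios scaling, 0.032 with the GC trend removed, 0.19 with the length trend removed and 0.15 with voomWithQualityWeights, and ranged from -0.12 to 0.062 when libraries were left out. When libraries were left out, Tgfb1 ranged from -0.091 to 0.77 and Tgfbr1 from -0.17 to 0.20. Tagln was at 0.0719 with DESeq2, 0.069 with edgeR, 0.068 with median-of-ratios scaling, 0.078 with voomWithQualityWeights and 0.051 with the GC trend removed, and from -0.15 to 0.029 without single libraries. Tnc was at 0.059 with DESeq2, 0.055 with edgeR, 0.052 with median-of-ratios scaling, 0.066 with voomWithQualityWeights, 0.020 with the GC trend removed and 0.16 with the length trend removed, and from -0.19 to 0.023 without single libraries.

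The number of ligand activation genes called higher was 5 with DESeq2, edgeR, median-of-ratios scaling or the GC trend removed and 6 with the length trend removed, and 1 to 3 without single libraries. For signal transmission it was 5 with DESeq2, edgeR, median-of-ratios scaling and voomWithQualityWeights, 4 with the GC trend removed and 6 with the length trend removed. The number called lower ranged from 2 to 13 when libraries were left out. It was 2 without day 7 replicate 3, beside 13.2% of all genes, and 3 without day 7 replicate 2, beside 12.2%. Without day 0 replicate 3 it was 13, beside 36.8%. Without both day 0 replicate 3 and day 7 replicate 2 it was 12, beside 33.2%, and 2 were higher, beside 13.5%. Response genes called higher were 10 with the GC trend removed, median-of-ratios scaling or voomWithQualityWeights and 2 with Gm42418 as a covariate, and 2 to 6 without single libraries, with 2 without day 7 replicate 1 and 3 without day 7 replicate 3. Those called lower were 0 with DESeq2 and voomWithQualityWeights and 1 with edgeR, median-of-ratios scaling, the RPKM table, a pseudocount of 0.1, all genes with reads or the GC or length trend removed, and 1 to 2 without single libraries. Shares of all genes called higher moved between these settings too. They were 20.3% with DESeq2, 22.2% with edgeR, median-of-ratios scaling or the length trend removed, and 22.3% with the GC trend removed. With voomWithQualityWeights the share was 24.8%, with Gm42418 as a covariate 10.1%, and without single libraries 9.07% to 12.8%. The causes were not tested.

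For the days 4 and 7, the number of TGF-β genes above every day 4 library at day 7 was 0 and the number below was 1 with median-of-ratios scaling over the 9 libraries, and the latter ranged from 2 to 5 without single libraries. The shares of all genes in these settings are not given here. Same-numbered libraries of day 0 and day 7 did not deviate together (correlations of -0.017, -0.18 and -0.44). The highest correlation, 0.36, was between day 0 replicate 3 and day 7 replicate 2, the libraries with most Gm42418 in their stages. With 3 libraries per stage, these values cannot decide whether the numbers pair the samples. With the replicate block in the fit, 3413 genes were called in place of 3971, the same number of TGF-β genes was called, and with the block and the length trend removed 2 were called higher, Ltbp2 and Tgfbr1, with Ltbp1 at 0.19, Tnc at 0.16, 5 signal transmission genes higher and 1 response gene lower. With the block and the GC trend removed, 1 was called higher, with Ltbp1 at 0.032, Tagln at 0.051 and Tnc at 0.020. In that setting 4 signal transmission genes and 10 response genes were higher, beside 20.0% of all genes. With the block and the length trend removed, 19.4% of all genes were called higher and 16.0% lower. Day 0 replicate 3 has the fewest reads, 7741204, and the highest CPM of Gm42418, and without it Tgfb1 passed the test upward.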
